A study of Mus musculus with 15 samples.

Results

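The genes described here are 41 enzymes of central carbon metabolism: the steps of glycolysis, the entry of pyruvate into the mitochondrion, the tricarboxylic acid (TCA) cycle, the malic enzymes and phosphoenolpyruvate carboxykinases that cycle carbon back to pyruvate, fructose bisphosphatase and the glycerol phosphate shuttle. They were chosen by name, and all 41 were found among the 38283 genes of the expression table. Of these, 37 had a mean above 1 FPKM (a level corrected for transcript length and library size) in at least 1 cell type and entered the test, among 14405 genes in all. The study sorted mouse islet cells by fluorescence and sequenced their RNA to compare the 3 main endocrine cell types. There were 15 samples, all labelled as strain C57BL/6: 5 of alpha cells (glucagon), 4 of beta cells (insulin) and 6 of delta cells (somatostatin).

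Alpha and beta cells carried the genotype Glu-Venus, in which the proglucagon promoter drives the fluorophore Venus. Alpha cells were the Venus-positive cells, and beta cells were large, autofluorescent Venus-negative cells. The paper took beta cells from the Glu-Venus sorts, and whether an alpha and a beta sample shared a sort is not stated. The main tests treated them as unpaired. Delta cells carried Sst-CreXROSA26EYFP/EYFP, in which Cre under the somatostatin promoter switches on EYFP. A comparison of delta cells with either other type is therefore also a comparison of mouse lines, and both cannot be told apart. Each sample was a pool of islets from several mice, so the p-values below measure the spread between pools. No agent was given, and the age of the mice is not given in the sources used here. Because these are bulk samples, fewer cells of a type and less RNA per cell cannot be told apart.

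Glycolysis splits a hexose phosphate into triose phosphates and oxidises these to pyruvate. In the mitochondrion, pyruvate dehydrogenase turns pyruvate into acetyl-CoA for the TCA cycle, and pyruvate carboxylase turns it into oxaloacetate. In beta cells the metabolism of glucose through these steps raises ATP and triggers insulin secretion, and carbon that enters by pyruvate carboxylase can leave the cycle again as malate, citrate or phosphoenolpyruvate. Fructose bisphosphatase catalyses the reverse of the phosphofructokinase step and is best known from gluconeogenesis in liver and kidney.

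The groups matched their labels in the summed markers of the 3 cell types, in which Gcg, Ins2 and Sst weigh most. The summed FPKM of 4 alpha cell markers ranged from 194896 to 363636 in alpha cells and stayed at or below 3004 elsewhere. The sum of 6 beta cell markers ranged from 119397 to 776932 in beta cells against at most 12764 elsewhere. The sum of 4 delta cell markers ranged from 102594 to 267813 in delta cells against at most 3346 elsewhere. Of these 4, Rbp4 overlapped between alpha cells (266 to 1094 FPKM) and delta cells (728 to 3317). Ppy, the marker of pancreatic polypeptide cells, was at 17728 to 41392 FPKM in alpha and 10857 to 48600 in delta cells. In beta cells Ppy was at 16.9 to 98.1 FPKM. A set of 6 samples stood apart from the rest, with a summed FPKM of 84 ribosomal protein genes between 65598 and 140965 (alpha 1, 2 and 3, beta 2, delta 1 and 2), while the other 9 samples lay between 7912 and 38762. Whether the main calls also passed without them is stated below. The table gives no read totals, so the number of reads behind each value is unknown.

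Most of the 37 enzymes were not told apart between the cell types, and the exceptions were concentrated in 1 comparison. In delta against beta cells 10 of 37 passed the test (27.0%), where 14.7% of all genes tested passed. Of these, 9 were higher in delta cells (11.7% of all genes) and 1 was lower (2.99% of all genes). Without regard to the test, 8 members were higher in every delta than in every beta sample (12.3% of all genes) and 1 was lower in every one (2.62%). In beta against alpha cells 2 of 37 passed (5.41%, against 7.66% of all genes), 1 higher (2.84% of all genes) and 1 lower (4.82%). In delta against alpha cells 1 of 37 passed (2.7%, against 6.81% of all genes), with a higher value in delta cells (5.33% of all genes, and 1.48% lower). The 3 comparisons share their samples and are not independent of each other. The remaining 26 members passed in no pair of cell types, and 6 members passed the test across all 3 cell types together (Fbp1, Pcx, Me3, Pfkl, Aldoa and Gpi1), a share close to the 16% of all genes that did so. The median difference of the 37 members on the log2(FPKM + 1) scale was 0.39 between delta and beta cells, beside 0.30 over all genes tested. It was -0.34 between beta and alpha cells (all genes -0.13) and 0.08 between delta and alpha cells (all genes 0.13).

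**Figure D1:**
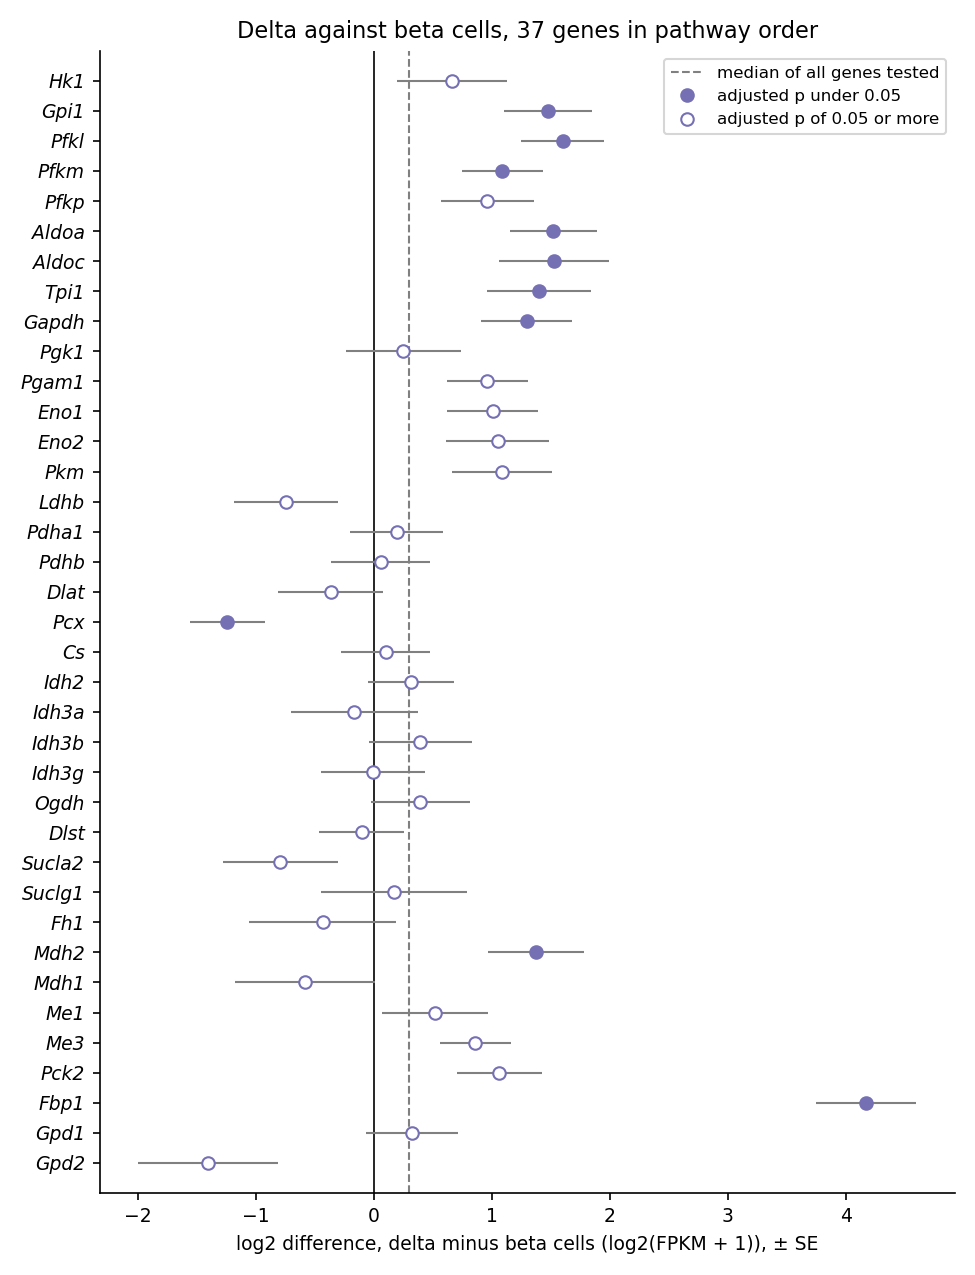
Difference between delta and beta cells in mean log2(FPKM + 1) for each of the 37 enzymes tested, with its standard error, ordered by metabolic step, filled where adjusted p is under 0.05, with a dashed line at the median of all genes. 6 of 7 upper glycolytic enzymes passed the test with higher values in delta cells, Fbp1 stands farthest to the right at 4.17, and Pcx is the 1 enzyme called lower, at -1.24.

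Fbp1 (ENSMUSG00000069805, chr13:62864753-62888282, minus strand, GRCm38), the fructose bisphosphatase of liver, gave the largest difference of any member. Its FPKM was 35.3, 48.6, 48.8, 17.8 and 13.3 in the 5 alpha samples. In the 4 beta samples it was 0.0616, 0.23, 0.0651 and 0.066. In delta cells it ran from 8.14 through a median of 22 to 31.9. Every alpha and every delta sample was thus far above every beta sample, and alpha and delta cells overlapped. The mean was 32.7 ± 16.7 FPKM (SD, n = 5) in alpha cells, 0.106 ± 0.0827 (n = 4) in beta cells and 20.4 ± 8.14 (n = 6) in delta cells, so that the ratio of means was 310 for alpha over beta cells and 193 for delta over beta cells. The size of these ratios rests on beta values close to 0. On the log2(FPKM + 1) scale beta cells were lower than alpha cells by -4.76 (SE 0.439, adjusted p = 3.5e-06) and delta cells were higher than beta cells by 4.17 (SE 0.422, adjusted p = 6.2e-06, limma). With alpha and beta samples 1 to 4 paired by number, the difference between them was -5.03 and did not pass (adjusted p = 0.0734, limma). In that paired fit 0 of all genes passed. The difference between delta and alpha cells, -0.59, did not pass (adjusted p = 0.53). In the 9 samples with less ribosomal protein RNA the means were 15.5, 0.0642 and 17.4 FPKM in alpha, beta and delta cells. Ppy, the marker of pancreatic polypeptide cells, followed the same order, with 17728 to 41392 FPKM in alpha cells, 16.9 to 98.1 in beta cells and 10857 to 48600 in delta cells, and its part in the Fbp1 result was not tested. The isozyme Fbp2, known from muscle and lying next to Fbp1, stood at 0 in every alpha and beta sample and reached at most 0.0871 FPKM in delta cells, so it was not tested.

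The promoter windows of Fbp1 and of Pcx, the pair of members that separated beta cells from both other types in opposite directions, are shown for comparison. Each window is the 250 bases before a RefSeq transcription start (GRCm38.p6), free of annotated exons and written 5′ to 3′ on the gene's strand. The Fbp1 window is chr13:62888283-62888532 (minus strand). Pcx has a distal start, with the window chr19:4510222-4510471, and a proximal start, with the window chr19:4594069-4594318, both on the plus strand. Capitals mark ACGTG on either strand (CACGT when it lies on the other strand), the core letters of the hypoxia response element. CACGTG, the letters of the E-box, contains ACGTG on both strands and overlaps it fully.
Fbp1: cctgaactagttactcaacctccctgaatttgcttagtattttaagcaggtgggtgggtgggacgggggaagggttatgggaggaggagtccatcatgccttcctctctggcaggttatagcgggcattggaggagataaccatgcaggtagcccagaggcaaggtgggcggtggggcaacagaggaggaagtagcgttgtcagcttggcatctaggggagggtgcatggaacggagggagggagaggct
Pcx distal: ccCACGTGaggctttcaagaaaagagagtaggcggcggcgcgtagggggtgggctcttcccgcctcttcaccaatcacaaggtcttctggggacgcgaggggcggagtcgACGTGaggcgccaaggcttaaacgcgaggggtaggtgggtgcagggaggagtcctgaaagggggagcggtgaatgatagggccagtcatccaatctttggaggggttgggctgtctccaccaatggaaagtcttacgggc
Pcx proximal: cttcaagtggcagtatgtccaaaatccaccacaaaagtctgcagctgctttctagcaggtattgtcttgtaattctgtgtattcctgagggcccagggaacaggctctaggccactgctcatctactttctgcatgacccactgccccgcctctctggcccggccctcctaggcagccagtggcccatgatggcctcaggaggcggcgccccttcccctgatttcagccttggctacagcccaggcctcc
The distal Pcx window holds CACGTG near its upstream end and a further ACGTG, while the proximal Pcx window and the Fbp1 window hold neither. Over the members, 39 of the 41 had RefSeq windows, 57 in all, and 22 of these (38.6%) held ACGTG, compared with 16.6% of 32851 windows of all genes. CACGTG was present in 6 of the 57 (10.5%), compared with 6.02% of all windows. Several windows belong to the same gene and overlap, and by gene 15 of 39 (38.5%) held ACGTG, compared with 18.5% of 27025 genes. A match is a string of letters and was not examined as a binding site.

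**Figure D2:**
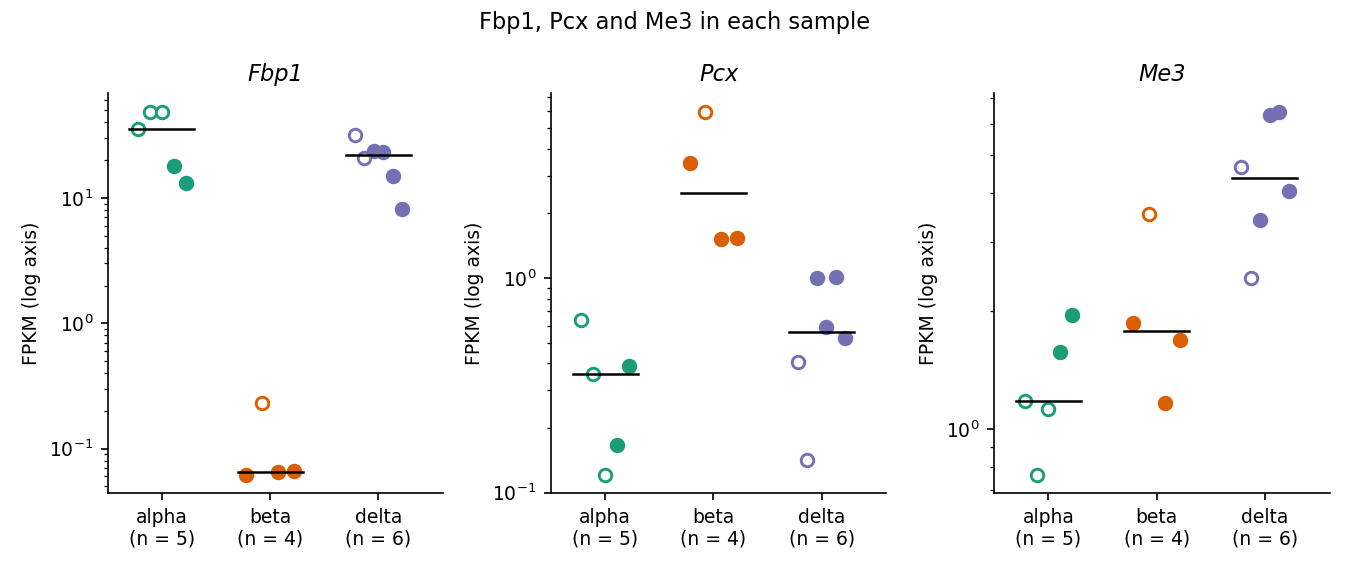
FPKM of Fbp1, Pcx and Me3 in every sample by cell type on a logarithmic axis, with black bars at the medians and open circles for the 6 samples whose summed ribosomal protein FPKM was above 50000. Fbp1 lies below 0.24 FPKM in all 4 beta samples, Pcx lies at 1.52 or above in beta cells and at 1.01 or below elsewhere, and Me3 is highest in delta cells.

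Pcx (ENSMUSG00000024892, chr19:4510472-4621752, plus strand) encodes pyruvate carboxylase and was the 1 member called higher in beta cells than in both other types. It stood at 3.44, 5.95, 1.52 and 1.53 FPKM in beta cells. In alpha cells it stood at 0.634, 0.355, 0.121, 0.166 and 0.388, and in delta cells between 0.142 and 1.01 with a median of 0.559. No beta sample overlapped with either other type. The means were 3.11 ± 2.10 FPKM for beta cells (SD, n = 4), 0.333 ± 0.204 for alpha cells (n = 5) and 0.612 ± 0.339 in delta cells (n = 6), a ratio of 9.33 over alpha and 5.08 over delta cells. The differences passed in both comparisons, at 1.503 for beta against alpha cells (SE 0.33, adjusted p = 0.0101) and -1.24 for delta against beta cells (SE 0.317, adjusted p = 0.0145). With alpha and beta samples 1 to 4 paired by number, the first was 1.52 and did not pass (adjusted p = 0.129, limma), in a fit where 0 of all genes passed. In the 9 samples with less ribosomal protein RNA the means were 0.277, 2.16 and 0.78 FPKM in alpha, beta and delta cells, and the difference between delta and beta cells no longer passed there (adjusted p = 0.0571).

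The pyruvate dehydrogenase subunits, which compete with pyruvate carboxylase for pyruvate, gave no called difference. Pdha1, the catalytic alpha subunit, averaged 18.3, 14.2 and 15.1 FPKM in alpha, beta and delta cells. Pdhb, the beta subunit, averaged 38.1, 34.5 and 31.8, and the acetyltransferase Dlat averaged 9.87, 13.9 and 9.67. The share of Pcx in the sum of Pcx and Pdha1 was 1.82% in alpha, 19.1% in beta and 3.805% in delta cells on average, and beta samples overlapped with neither other type. A share within 1 sample does not depend on scaling between libraries. In exact permutation tests of this share, two-sided, p was 0.0159 for beta against alpha cells and 0.00952 for delta against beta cells, in each case the smallest value that the group sizes allow. Adjusted over the 27 share comparisons made, both came to 0.103 and did not pass.

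Me3 (chr7:89632392-89854359, plus strand), the mitochondrial NADP-dependent malic enzyme that returns malate to pyruvate, was the 1 member that passed between delta and alpha cells. It was at 1.18, 0.763, 1.13, 1.57 and 1.95 FPKM in alpha cells and between 2.42 and 6.44 in delta cells, with a median of 4.35. The beta samples, at 1.87, 3.53, 1.17 and 1.69, overlapped with both. Delta cells were higher than alpha cells by 1.23 (SE 0.282, adjusted p = 0.0118), with means of 4.55 ± 1.60 (SD, n = 6) and 1.32 ± 0.454 FPKM (n = 5). The difference between delta and beta cells was 0.86 (adjusted p = 0.0673). Without the 6 samples high in ribosomal protein RNA, the means of alpha and delta cells were 1.76 and 5.05 FPKM and the comparison did not pass (adjusted p = 0.0982). The exons of Me3 overlap the gene A230065N10Rik on the opposite strand, and strand-specific counting is not stated, so reads of the pair cannot be told apart.

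The cytosolic malic enzyme Me1 passed in no pair. It was at 8.68, 5.11, 1.39, 3.50 and 5.25 FPKM in alpha cells, at 2.40, 8.20, 0.841 and 2.45 in beta cells, and between 2.48 and 6.42 in delta cells (median 5.14). All groups overlapped (adjusted p = 0.498 to 0.991). The share of Me1 in Me1 and Me3 together averaged 74.4% in alpha, 56.8% in beta and 50.03% in delta cells, and the exact permutation p for delta against alpha cells was 0.0087 (adjusted p = 0.103). The cytosolic malate dehydrogenase Mdh1 averaged 51.9 ± 30.9, 83.2 ± 80.2 and 42.8 ± 17.2 FPKM in the 3 cell types and did not pass in any pair. Among the phosphoenolpyruvate carboxykinases, the mitochondrial Pck2 was the form detected above 1 FPKM and made up at least 97.8% of the sum on average in each cell type. Pck2 was at 8.67, 9.04, 5.67, 2.69 and 5.51 FPKM in alpha cells, at 3.26, 7.70, 2.69 and 3.51 in beta cells, and between 5.34 and 13.4 in delta cells (median 10.3). The difference between delta and beta cells was 1.06 (adjusted p = 0.0589). The cytosolic Pck1, which dominates in liver, stayed at or below 0.515 FPKM in every sample and was not tested.

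The upper part of glycolysis held most of the calls between delta and beta cells. 6 of its 7 enzymes passed with higher values in delta cells (Gpi1, Pfkl, Pfkm, Aldoa, Aldoc and Tpi1), beside 11.7% of all genes called in this direction. Their median difference was 1.47, beside 0.30 over all genes. Neither beta against alpha cells nor delta against alpha cells had a called member in this group, and alpha cells lay between the other types or overlapped with them. In delta against alpha cells all 7 differences were above 0, with a median of 0.78, and they stayed above 0 under both other scalings, where Aldoa passed (adjusted p = 0.0422 with size factors and 0.00939 with quantile normalization).

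Gpi1, glucose phosphate isomerase, was at 36, 14.9, 12.3, 15.4 and 24.1 FPKM in alpha cells, at 9.85, 16.0, 6.39 and 6.25 in beta cells, and between 19.5 and 42.1 in delta cells (median 26.3). Every delta sample lay above every beta sample. The difference was 1.47 (SE 0.372, adjusted p = 0.0137), a ratio of means of 2.85. Its exons overlap those of Gm26762 on the opposite strand.

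The 3 phosphofructokinases catalyse the committed step of glycolysis, and their genes differed in how clearly delta and beta cells separated. Pfkl, the liver form, was at 2.6, 1.51, 2.44, 4.64 and 8.60 FPKM in alpha cells, at 2.06, 1.16, 0.907 and 2.89 in beta cells, and between 5.71 and 8.41 in delta cells (median 7.32). Delta and beta samples did not overlap, and delta cells were higher by 1.60 (SE 0.352, adjusted p = 0.00584), a ratio of means of 4.04. Pfkm, the muscle form, was at 1.89, 4.37, 2.14, 3.41 and 4.49 in alpha cells, at 2.17, 2.76, 1.16 and 3.72 in beta cells, and between 2.97 and 9.53 in delta cells (median 6.17). Delta and beta cells overlapped in Pfkm, and the difference of 1.09 passed narrowly (adjusted p = 0.0424). Pfkp, the platelet form, was at 4.14, 5.43, 3.05, 9.82 and 6.78 in alpha cells, at 7.91, 8.97, 1.90 and 7.62 in beta cells, and between 8.66 and 19.8 in delta cells (median 12.5), and its difference of 0.96 did not pass (adjusted p = 0.12). Pfkp had the largest mean share of the 3 forms in each cell type, with 45.0% in alpha, 59.0% in beta and 48.2% in delta cells. The share of Pfkl was 28.9%, 17.3% and 27.5% in the same order, and its exact permutation p between delta and beta cells was 0.0190 (adjusted p = 0.103).

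Aldoa, the aldolase that splits fructose bisphosphate in most tissues, was at 76.6, 116, 57.3, 67.7 and 74.7 FPKM in alpha cells, at 45.4, 95.7, 32.9 and 47.0 in beta cells, and between 110 and 204 in delta cells (median 148). Delta cells lay above all beta samples, with a difference of 1.52 (SE 0.368, adjusted p = 0.0106) and a ratio of means of 2.75. Aldoc, the brain form, was at 8.95, 17.8, 13.3, 15.1 and 6.62 in alpha cells, at 4.1, 15, 1.59 and 10.8 in beta cells, and between 14.5 and 28.0 in delta cells (median 18.4). Delta and beta cells overlapped in beta 2 alone, and the difference was 1.53 (SE 0.463, adjusted p = 0.0363). Aldoa made up 86.2%, 88.7% and 88.2% of the sum of both in alpha, beta and delta cells. Tpi1, triose phosphate isomerase, was at 36.3, 30.8, 45.9, 13.9 and 23.6 in alpha cells, at 18.1, 25.0, 5 and 9 in beta cells, and between 25.3 and 52.7 in delta cells (median 29.9). Delta and beta samples did not overlap, though the highest beta and lowest delta value lay close together, and the difference was 1.399 (SE 0.443, adjusted p = 0.0443).

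**Figure D3:**
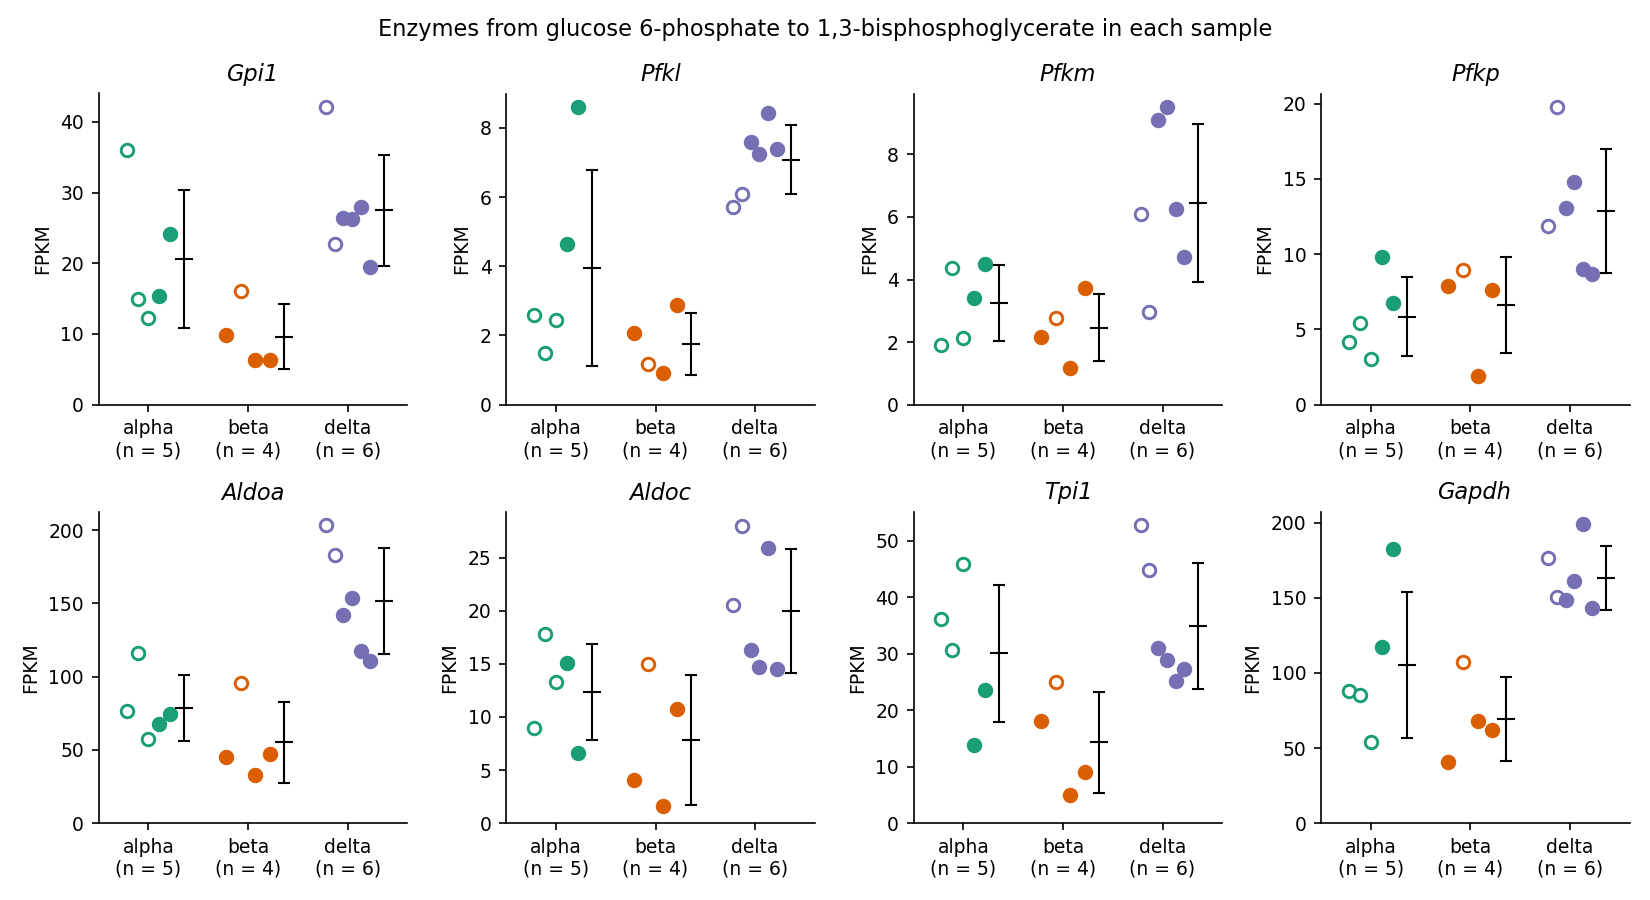
FPKM of the 7 upper glycolytic enzymes and Gapdh in every sample by cell type, on linear axes that start at 0, with black bars for the mean ± SD and open circles for the 6 samples whose summed ribosomal protein FPKM was above 50000. Gpi1, Pfkl, Aldoa, Tpi1 and Gapdh do not overlap between delta and beta cells, and alpha cells spread across both ranges.

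In the lower part of glycolysis 1 of 7 enzymes passed between delta and beta cells (14.3%, near the 14.7% of all genes), and 6 of 7 differences were above 0 (median 1.01). Gapdh, which oxidises the triose phosphate, was at 87.8, 85.5, 54.0, 117 and 183 FPKM in alpha cells, at 40.5, 107, 68.0 and 62.0 in beta cells, and between 143 and 199 in delta cells (median 156). Delta and beta samples did not overlap, and delta cells were higher by 1.29 (SE 0.384, adjusted p = 0.0327), a ratio of means of 2.35. Processed pseudogene copies of Gapdh are known, and its values are uncertain where reads could be split among them. The pyruvate kinase gene Pkm averaged 41.1, 41.3 and 79.0 FPKM in alpha, beta and delta cells, and its difference of 1.09 between delta and beta cells did not pass (adjusted p = 0.099). The same was true of the phosphoglycerate mutase Pgam1 (0.96, adjusted p = 0.0736). Pgk1, phosphoglycerate kinase, averaged 7.98, 8.17 and 8.68 FPKM, and its difference fell below 0 after division by size factors (-0.09) or quantile normalization (-0.04). Ldhb, the heart-type lactate dehydrogenase subunit, was the 1 lower glycolytic member with a difference below 0 (-0.74, adjusted p = 0.288).

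The enolase genes are a ubiquitous form, Eno1, and a form typical of neurons and endocrine cells, Eno2. Eno1 was at 22.8, 44.4, 41, 18.1 and 26.2 FPKM in alpha cells, at 18.7, 28.7, 11.6 and 22.1 in beta cells, and between 20.3 and 59.3 in delta cells (median 42.9). Eno2 was at 9.79, 6.64, 6.93, 0.8293 and 9.55 in alpha cells, at 5.45, 9.83, 4.40 and 5.35 in beta cells, and between 10.6 and 17.0 in delta cells (median 14.0). For Eno2 every delta sample exceeded every alpha and beta sample, yet neither difference passed after adjustment (1.13 over alpha cells, adjusted p = 0.13, and 1.05 over beta cells, adjusted p = 0.122). The first passed with the ribosomal protein set as a covariate (adjusted p = 0.0373), and the second in a fit of the 2 cell types alone (adjusted p = 0.0181). Eno1 made up 82.3%, 76.2% and 74.3% of the sum of both.

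The first step, the phosphorylation of glucose, rested on low values. Hk1 was at 0.206, 0.643, 3.09, 5.45 and 4.50 FPKM in alpha cells and was listed at 0 in all 4 beta samples. In delta cells it was at 0.0695, 0, 1.05, 0.332, 2.25 and 0.657. Alpha and beta samples did not overlap, and the test between them just missed (adjusted p = 0.0516). It passed with size factors (adjusted p = 0.0386) and quantile normalization (adjusted p = 0.0196), as well as with the ribosomal protein set as a covariate and in the 9 samples low in ribosomal protein RNA. The alpha values were low in 2 of the 3 alpha samples that were high in ribosomal protein RNA. Hk2 and Hk3 were listed at 0 in all alpha and beta samples and reached at most 0.0188 and 0.379 FPKM in delta cells.

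The promoters of the abundant glycolytic genes Aldoa and Gapdh, which were both higher in delta cells, are given from the same source, each as the 250 bases before a RefSeq start on the minus strand. The Aldoa window is chr7:126799255-126799504, and the Gapdh window is chr6:125165774-125166023.
Aldoa: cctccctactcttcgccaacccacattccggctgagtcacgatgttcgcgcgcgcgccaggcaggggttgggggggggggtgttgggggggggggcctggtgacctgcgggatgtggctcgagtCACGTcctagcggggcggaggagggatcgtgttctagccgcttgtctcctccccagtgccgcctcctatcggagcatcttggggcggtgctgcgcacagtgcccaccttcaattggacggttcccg
Gapdh: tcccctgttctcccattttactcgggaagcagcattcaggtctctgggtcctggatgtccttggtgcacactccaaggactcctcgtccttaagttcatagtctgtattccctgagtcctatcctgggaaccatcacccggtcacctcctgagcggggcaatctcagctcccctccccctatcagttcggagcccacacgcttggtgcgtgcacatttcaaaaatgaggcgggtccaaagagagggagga
The Aldoa window holds ACGTG once, on the other strand as CACGT, and the Gapdh window does not hold it. Of the 7 upper glycolytic genes, Aldoa and Pfkm have a window with these letters. The genes called higher in delta cells thus include genes with and without this string near their start.

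Of 11 TCA cycle enzymes tested, none passed between beta and alpha cells or between delta and alpha cells, and 1 passed between delta and beta cells (9.09%), near the 11.7% of all genes called in that direction. That was Mdh2, the mitochondrial malate dehydrogenase that regenerates oxaloacetate. It was at 62.1, 133, 58.9, 111 and 145 FPKM in alpha cells, at 31.9, 89.2, 60.2 and 29.0 in beta cells, and between 98.0 and 182 in delta cells (median 120). Delta and beta samples did not overlap, and delta cells were higher by 1.37 (SE 0.41, adjusted p = 0.0338). The median difference of the 11 was 0.10 between delta and beta cells, below the 0.30 of all genes, and after division by size factors all but Mdh2 were below 0. After quantile normalization Mdh2 (1.39), Ogdh (0.30), Idh3b (0.23) and Idh2 (0.10) were above 0. Citrate synthase, Cs, was lower in every delta sample (9.76 to 15.1 FPKM) than in every alpha sample (16.9 to 24.1), but the difference of -0.70 did not pass (adjusted p = 0.345). It passed under both other scalings, at -0.85 with size factors (adjusted p = 0.0123) and -0.80 with quantile normalization (adjusted p = 0.0172). Sucla2, the ADP-forming subunit of succinyl-CoA ligase, averaged 15 ± 6.52, 30.6 ± 18.7 and 16.9 ± 11.4 FPKM in alpha, beta and delta cells. Fumarase, Fh1, ranged from 24.5 to 253 FPKM among the 4 beta samples, with beta 2 far above the others. The isocitrate dehydrogenase subunit Idh3g averaged 63.7, 62.7 and 58.2 FPKM, and the oxoglutarate dehydrogenase Ogdh 21.3, 20.5 and 27.8.

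The balance between both pathways within a sample was described by the summed FPKM of 13 glycolytic genes (upper and lower, without Ldhb) over that of the 11 TCA cycle genes. This quotient does not depend on scaling between libraries. In alpha cells it lay between 0.699 and 1.14, with a median of 0.974. In beta cells it lay between 0.577 and 1.04 (median 0.744), and in delta cells it was highest, between 1.13 and 1.69 (median 1.64). All delta samples lay above all beta samples, and delta 2 lay just below the highest alpha sample, alpha 4. The glycolytic sum was 437 to 702 FPKM in delta cells against 164 to 416 in beta cells. The TCA cycle sum overlapped, with 272 to 552 in delta cells and 191 to 721 in beta cells. A few abundant genes, Aldoa, Gapdh and Pkm for glycolysis and Mdh2, Fh1 and Idh3g for the TCA cycle, weigh most in these sums.

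**Figure D4:**
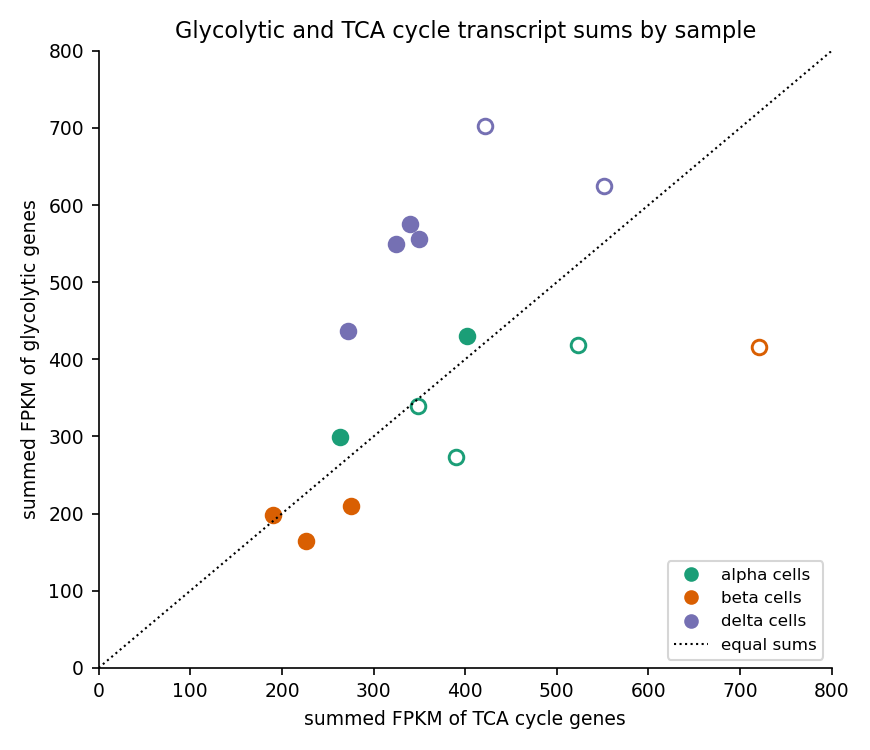
Summed FPKM of 13 glycolytic genes against summed FPKM of 11 TCA cycle genes in every sample, coloured by cell type. A dotted line marks equal sums, and open circles mark the 6 samples whose summed ribosomal protein FPKM was above 50000. The quotient of both sums is 1.13 or more in all delta samples and 1.04 or less in all beta samples, while the TCA cycle sums overlap.

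The glycerol phosphate shuttle carries cytosolic reducing equivalents to the mitochondrion through Gpd1 and the mitochondrial Gpd2. Gpd2 was at 14.7, 12.4, 1.77, 10.1 and 17.2 FPKM in alpha cells, at 13.4, 33.2, 6.58 and 26.5 in beta cells, and between 1.79 and 17.2 in delta cells (median 5.52). Gpd1 was at 3.56, 11.9, 3.41, 12.1 and 8.55 in alpha cells, at 2.81, 6.90, 1.86 and 4.03 in beta cells, and between 3.38 and 7.65 in delta cells (median 4.52). Neither gene passed in any pair. The share of Gpd2 in their sum averaged 55.6% in alpha, 82.6% in beta and 53.9% in delta cells, with exact permutation p of 0.0317 for beta against alpha and 0.0190 for delta against beta cells, which adjusted to 0.122 and 0.103. Of the 27 share comparisons in all, 7 had an unadjusted p under 0.05 and none passed after adjustment.

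Scaling between samples changed which members were called, as the deposited values carry none beyond FPKM. Division by median-ratio size factors moved the median difference of all genes between delta and beta cells from 0.30 to 0.02, and that of the members from 0.39 to 0.02. Under this scaling 8 members passed between delta and beta cells, 5 higher (Fbp1, Pfkl, Aldoa, Aldoc and Gpi1) and 3 lower (Pcx at -1.45, Gpd2 at -1.78 and Sucla2 at -1.19), while 18.6% of all genes passed (9.57% higher and 9% lower). Of all genes called between delta and beta cells, 51.5% were higher in delta cells under this scaling and 79.6% without it. The upper glycolytic differences all stayed above 0, between 0.61 and 1.26. Gapdh, Mdh2, Tpi1 and Pfkm no longer passed, at 0.87, 0.95, 1.01 and 0.77.

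**Figure D5:**
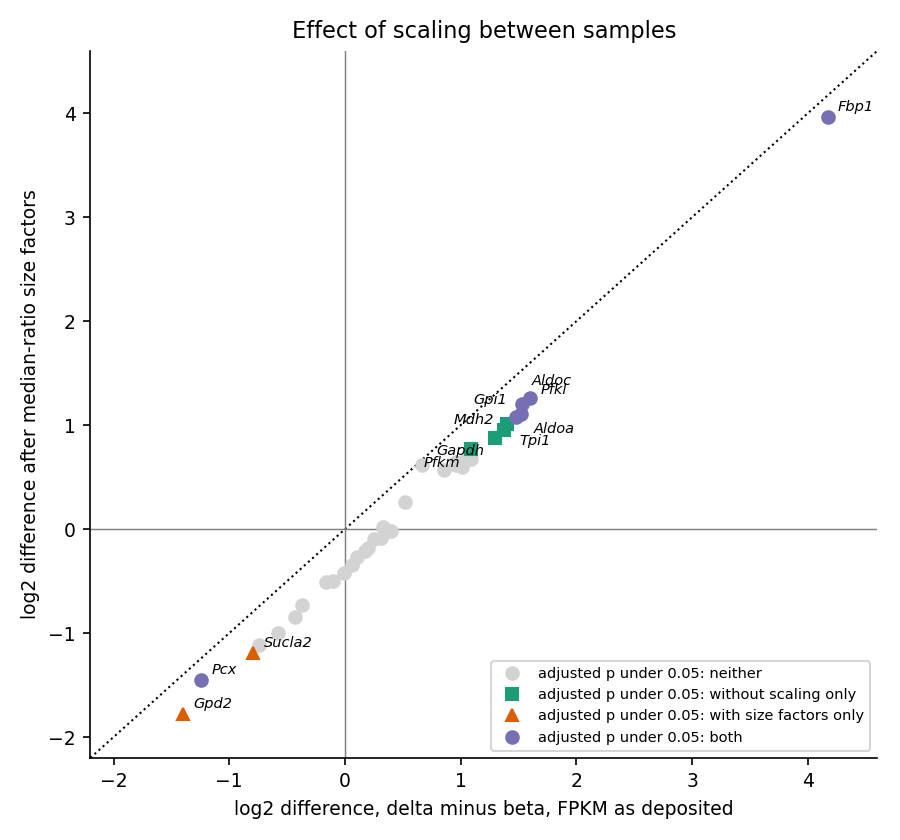
Difference between delta and beta cells in mean log2(FPKM + 1) of each tested member as deposited and after division by median-ratio size factors, with a dotted line of equality and symbols for the setting in which adjusted p is under 0.05. The members' median moves from 0.39 to 0.02 along with that of all genes, while Fbp1 stays near 4 and Pcx stays below 0.

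Beta 2 and delta 1 weighed most on the count between delta and beta cells. Without beta 2, 15 members passed between delta and beta cells, 6 between beta and alpha cells and 14 across the 3 cell types, while 18.8%, 12.1% and 20.6% of all genes did. Without delta 1, 5 passed between delta and beta cells (12% of all genes), and without beta 1, 6 passed (11.7% of all genes). Gpi1, Pfkl, Aldoa and Fbp1 passed between delta and beta cells in each of the 15 fits that left out 1 sample, and Pcx did so in both of its comparisons. Tpi1 was lost in 9 of the 15 fits, Pfkm and Aldoc in 6, Mdh2 in 4 and Gapdh in 3. In the 9 samples with less ribosomal protein RNA alone, 13 members passed between delta and beta cells, all 13 higher in delta cells, where 21.9% of all genes passed and 91% of these were higher in delta cells. They were Fbp1, Gpi1, Pfkl, Pfkm, Aldoa, Aldoc, Tpi1, Gapdh, Mdh2, Pgam1, Pkm, Me3 and Pck2. Between beta and alpha cells Fbp1 and Pcx also passed in these samples. The means there in alpha, beta and delta cells were 6.62, 1.95 and 7.67 FPKM for Pfkl, 71.2, 41.8 and 131 for Aldoa and 19.7, 7.49 and 25.0 for Gpi1.

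Markers of other cells moved with some of these groups. The sum of 7 acinar cell markers, of which Amy2a5 was listed at 0 throughout, was 0.122 to 83.8 FPKM in alpha, 0.0447 to 14.8 in beta and 2.79 to 501 in delta cells, with the highest value in delta 4. The sum of 4 duct markers was 15.4 to 160, 0.813 to 18.3 and 8.83 to 85.5 FPKM. The 5 endothelial markers summed to 1.47 to 2.88, 0.619 to 3.34 and 2.96 to 6.17, the 6 leukocyte markers to 0.999 to 4.46, 2.43 to 16.1 and 1.398 to 5.40, and the 4 Schwann cell markers to 0.727 to 6.94, 0.822 to 3.52 and 1.25 to 9.26. Of 5 stromal markers Col1a1 and Pdgfra were listed at 0 throughout, and the sum reached 3.79 in alpha and at most 0.058 elsewhere. The part of pancreatic polypeptide, acinar, duct, endothelial, leukocyte, stromal and Schwann cell RNA in the results was not tested.

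Other genes of these pathways, 51 listed and 43 tested, were read alongside the members. Between delta and beta cells 7 passed (16.3%, near the 14.7% of all genes). The phosphofructokinase-bisphosphatases, which make and remove an allosteric activator of phosphofructokinase, split: Pfkfb3 was higher in delta cells (1.43, adjusted p = 0.0072) and Pfkfb2 lower (-2.58, adjusted p = 0.00026). G6pc2, the islet form of the glucose-phosphatase catalytic subunit and itself a beta cell marker, was lower in delta cells by -7.10 (adjusted p = 2.1e-06), as was the succinate dehydrogenase subunit Sdha (-1.48, adjusted p = 0.0295). The lactate dehydrogenase subunit Ldha (0.90, adjusted p = 0.0282) and the mitochondrial carriers Slc25a10 for dicarboxylates (1.15, adjusted p = 0.0046) and Slc25a11 for oxoglutarate and malate (1.77, adjusted p = 0.0098) were higher in delta cells, and Ldha averaged 1.02 FPKM there against 0.0665 in beta cells. Between beta and alpha cells 5 passed (11.6%, against 7.66% of all genes). This count fell to 2 without alpha 1 or without alpha 2 (6% and 5.2% of all genes). It fell to 3 without alpha 3, alpha 4, beta 1, beta 4, delta 1 or delta 3 (4.85% to 8.23% of all genes). Pfkfb2 (2.26, adjusted p = 0.0019), G6pc2 (5.21, adjusted p = 0.00011), Sdha (1.55, adjusted p = 0.0448) and the citrate lyase Acly (1.49, adjusted p = 0.0494) were higher in beta cells, and Slc25a11 was lower (-1.56, adjusted p = 0.0396). Between delta and alpha cells Pfkfb3 alone of 43 passed (1.13, adjusted p = 0.0319), where 6.81% of all genes did. Leaving out 1 sample gave 0 without alpha 1, alpha 4, delta 1 or delta 3 (5.89% to 6.69% of all genes). It gave at most 3, without beta 2 (7.57% of all genes). In the 9 samples low in ribosomal protein RNA the counts were 3 between beta and alpha cells (10.8% of all genes) and 0 between delta and alpha cells (5.35% of all genes). None of 7 pentose phosphate pathway genes passed in any pair.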

How the data were processed

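RNA was measured in 15 samples of sorted islet cells. The authors amplified it, sequenced single reads, aligned them to GRCm38 with TopHat (TopHat2 2.0.8 in the submitters' processing notes, another release in the paper) and deposited gene-level FPKM computed by Cufflinks 2.2.1. Counting by strand and the annotation release are not given in the sources used here. Such FPKM are scaled by transcript length and mapped reads only, and a few abundant hormone or ribosomal transcripts lower the values of all others. Raw counts, which the authors tested with edgeR, were not used here, so no count test was run.

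Values were tested as log2(FPKM + 1) with limma 3.58.1 in R 4.3.3 (one mean per cell type, trend, all 15 samples, two-sided, Benjamini-Hochberg over 14405 genes with a mean above 1 FPKM in a cell type, called at adjusted p under 0.05). Differences understate the changes of low genes. Shares were compared with exact permutation tests in SciPy 1.17.1. All table columns mapped to a sample. The read depth is unknown, so no detection limit is given.

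Members, gene lists and markers were chosen with earlier results of these data known. Members called without overlap and isozymes above 1 FPKM are given by every alpha and beta value and by the lowest, median and highest of the 6 delta values, others by mean or range. Of the other pathway genes those called are named, and 1 that was not called is not reported here. Members not singled out passed in no pair. Coordinates are from GENCODE M21 (GRCm38), promoters from RefSeq (GRCm38.p6). Exons of 17 of the 41 members overlap another gene there, among them Hk1, Gpi1, Pfkm, Aldoa, Tpi1, Gapdh, Pkm and Me3, and reads of such pairs cannot be told apart. Alternatives were a pseudocount of 0.1, a filter at 5 FPKM or none, size factors, quantile normalization, the ribosomal protein set as a covariate or its low samples alone (limit 50000), fits of 2 cell types, a replicate block, robust moderation without trend, a 2-fold minimum and leaving out each sample.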

Additional observations from a re-analysis of the deposited data

Results flagged for a closer look

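In 11 of 110 combinations of a member and a cell type, 1 sample lay far from the rest of its group by Dixon's criterion at 95%. For independent, normally distributed values about 1 in 20, or 5.5 of 110, would do so. That count is only a rough guide here, because the members of 1 sample share its scaling. The size factor was 1.71 in beta 2 and 0.458 to 1.04 in the other beta samples. All 11 values were the highest of their group. Of the 11, 5 were in beta 2 and 3 in delta 2, both among the samples high in ribosomal protein RNA.

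In beta 2, Fh1 was at 253 FPKM (other beta samples 24.5 to 49.8), Suclg1 at 66.3 (5.46 to 15.4), Idh3a at 25.7 (3.20 to 6.12), Pck2 at 7.70 (2.69 to 3.51) and Fbp1 at 0.23 (0.0616 to 0.066). In delta 2, Mdh2 was at 182 FPKM (other delta samples 98.0 to 129), Sucla2 at 39.3 (7.78 to 15.7) and Gpd2 at 17.2 (1.79 to 7.14). Fh1 was at 147 FPKM in alpha 2 (other alpha samples 35.9 to 60.9), so that fumarase stood out in the sample numbered 2 of both alpha and beta cells. Gpi1 was at 42.1 FPKM in delta 1 (19.5 to 27.9) and Gpd1 at 7.65 in delta 5 (3.38 to 4.78).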

How the results depend on the processing

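No called difference of a member turned direction. Of the 10 members called between delta and beta cells, 4 (Gpi1, Pfkl, Aldoa and Fbp1) passed under all 10 alternatives and all 15 fits without 1 sample, and 6 were lost in at least 1. Members called across the 3 cell types, 6 as reported, were 13 under quantile normalization, 15 with the ribosomal protein set as a covariate and 11 in the low samples alone, where the share of all genes also rose from 16% to 22.3%, 21.4% and 20.9%. Those between beta and alpha cells, 2 as reported, were 1 with a filter at 5 FPKM, 4 under quantile normalization, 7 in the low samples and 3 under size factors or with the covariate (all genes 9.05%, 13.7%, 10.8%, 14.4% and 9.99%, against 7.66%). Those between delta and alpha cells, 1 as reported, were 0 with a filter at 5 FPKM and 3 each under size factors, quantile normalization, the covariate and a fit of the 2 cell types (all genes 5.64%, 7.39%, 7.55%, 8.48% and 7.61%, against 6.81%). In the low samples 1 passed there, but it was Hk1, lower in delta cells, in place of Me3. Between delta and beta cells Pgam1, Eno1, Eno2, Pkm, Me3, Pck2, Gpd2 and, lower under size factors, Sucla2 passed in at least 1 alternative. Other pathway genes called between delta and alpha cells, 1 as reported, were 0 with a filter at 5 FPKM (5.64% of all genes). They were 2 under no filter, quantile normalization or the covariate (4.71%, 7.55% and 8.48%). They were 3 under size factors (7.39%) and 4 in the fit of 2 cell types (7.61%). Other pathway genes called between beta and alpha cells, 5 as reported, were 3 in that fit (3.61% of all genes) and 8 under quantile normalization (13.7%). Leaving out 1 sample gave 5 to 14 members across the cell types (12.4% to 20.6% of all genes) and 2 to 6 between beta and alpha cells (4.85% to 12.1%). It gave 1 to 2 between delta and alpha cells (5.89% to 8.3%) and 5 to 15 between delta and beta cells (10.4% to 18.8%). The cause was not tested.

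With the replicate block in all 15 samples, 6, 2, 1 and 11 members passed across the cell types and in beta against alpha, delta against alpha and delta against beta cells (all genes 15.3%, 8.52%, 5.77% and 13.9%). Of the delta against beta calls, Gapdh and Pfkm were lost (adjusted p = 0.0638 and 0.0814) and Pgam1, Eno1 and Pck2 gained. With alpha and beta samples 1 to 4 paired by number, 0 members and 0 genes of all passed in limma (2751 genes at an unadjusted p under 0.05), and Pcx and Fbp1 differed by 1.52 and -5.03 (adjusted p = 0.129 and 0.0734). Same-numbered samples correlated between -0.152 and 0.281 in their deviations and not all above 0.1 (0.271 for alpha 2 and beta 2), so the block was kept as an alternative. Correlations of different-numbered samples are not given for comparison, so these values do not decide whether samples were paired. Whether same-numbered alpha and beta samples share a sort is not stated in the sources used here. Low members, such as Hk1 and Pcx, are limited by the unknown read depth.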
